A study of Homo sapiens with 8 samples.

Results

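The platelet glycoprotein Ib-IX-V complex (GPIb-IX-V) and glycoprotein VI (GPVI) are the adhesion receptors with which platelets first hold on to a damaged vessel wall. The 6 genes that encode them, GP1BA, GP1BB, GP9, GP5, GP6 and FCER1G, were taken by symbol from a table of 19718 coding genes, and all 6 were found. They were described in human HEL92.1.7 cells, an established erythroleukaemia line, labelled leukaemia blast cells and secondary acute myeloid leukaemia, and in its persister-resistant derivative HEL OTX P/R, here called P/R cells. Both lines were studied with and without OTX015, an inhibitor of the bromodomain and extra-terminal (BET) proteins. The 4 groups were P/R cells given 1000 nM OTX015 for 8 h, untreated P/R cells, parental cells given the same dose for the same time, and untreated parental cells. All were grown in RPMI1640 with 20% serum, and each group had 2 separately treated biological replicates (8 libraries). The P/R cells are 1 derivative of 1 line, so a difference between the lines cannot be told apart from a difference between these 2 cultures. RNA came from whole cultures, in which fewer cells of a type and less RNA per cell cannot be told apart.

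In GPIb-IX-V, the alpha chain (GP1BA) carries the binding site for von Willebrand factor and for thrombin and is disulphide-linked to the beta chain (GP1BB), GPIX (GP9) is needed for the complex to reach the surface, and GPV (GP5) is a more loosely held subunit that thrombin cleaves. GPVI (GP6) is the collagen receptor; it has no signalling motif of its own and passes its signal through the Fc receptor gamma chain (FCER1G), which carries an immunoreceptor tyrosine-based activation motif (ITAM). The first 5 genes are markers of megakaryocytes and platelets, while FCER1G is also used by Fc receptors of mast cells and myeloid cells. In this lineage, GATA and ETS family factors are known regulators of such genes.

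The promoters of 4 members are shown because 3 of them (GP9, GP5 and GP6) had the lowest ratios under OTX015 in parental cells and the other, FCER1G, had one of the highest. Each is the RefSeq window on GRCh38.p14 from 250 bases before to 50 bases after the annotated start, read 5′ to 3′ on the gene's own strand. Capitals mark GATAA, the core recognised by GATA factors, and GGAAG, a core recognised by ETS factors, on either strand; on the other strand they read TTATC and CTTCC. No GATAA match overlapped a GGAAG match.
GP9: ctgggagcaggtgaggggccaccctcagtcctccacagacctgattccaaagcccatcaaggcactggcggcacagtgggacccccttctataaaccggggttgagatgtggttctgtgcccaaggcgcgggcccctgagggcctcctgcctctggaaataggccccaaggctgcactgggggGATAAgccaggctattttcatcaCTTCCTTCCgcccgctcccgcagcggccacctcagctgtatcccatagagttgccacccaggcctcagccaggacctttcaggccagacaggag
GP6: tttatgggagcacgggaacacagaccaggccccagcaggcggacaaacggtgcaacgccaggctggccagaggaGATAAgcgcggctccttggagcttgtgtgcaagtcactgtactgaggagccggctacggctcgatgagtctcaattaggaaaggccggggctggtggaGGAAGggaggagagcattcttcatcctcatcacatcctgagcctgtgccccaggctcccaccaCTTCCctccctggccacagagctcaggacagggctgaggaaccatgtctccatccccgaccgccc
GP5: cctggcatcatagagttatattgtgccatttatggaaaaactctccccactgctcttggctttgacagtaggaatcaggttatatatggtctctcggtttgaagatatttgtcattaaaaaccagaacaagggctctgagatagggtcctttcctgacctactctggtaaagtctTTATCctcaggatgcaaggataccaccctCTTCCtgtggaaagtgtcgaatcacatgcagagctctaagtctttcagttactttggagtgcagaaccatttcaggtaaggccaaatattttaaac
FCER1G: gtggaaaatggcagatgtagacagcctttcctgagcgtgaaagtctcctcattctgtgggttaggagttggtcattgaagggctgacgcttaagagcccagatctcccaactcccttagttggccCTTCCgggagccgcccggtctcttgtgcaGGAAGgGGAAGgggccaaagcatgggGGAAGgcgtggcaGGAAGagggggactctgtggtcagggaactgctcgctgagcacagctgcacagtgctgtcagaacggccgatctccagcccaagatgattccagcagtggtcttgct

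These windows are chr3:129060529-129060828 (plus strand), chr19:55038215-55038514 (minus strand), chr3:194399217-194399516 (minus strand) and chr1:161215045-161215344 (plus strand). Of the 6 members, 5 had a window in the RefSeq table; GP1BA had none, and GP1BB lies at chr22:19723289-19723588 (plus strand). GP9, GP6, GP5 and GP1BB each held 1 GATAA match, against 0 in FCER1G. The match lay at -67 to -63 from the start in GP9, at -176 to -172 in GP6, at -75 to -71 in GP5 and at -34 to -30 in GP1BB. GGAAG matched 2 times in GP9, where the matches share 1 base, 2 times in GP6, once in GP5 and in GP1BB, and 5 times in FCER1G. Among all 35116 promoter windows of the table, 22.7% held GATAA and 71.9% held GGAAG; among the 12678 windows of tested genes the shares were 14.9% and 76.6%. These matches are descriptions of letters and show no binding.

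Levels are given in FPKM, a count of fragments corrected for gene length and library size, quantile normalised by the time of deposit, so every library sums to 678133 FPKM and the sequencing depth is unknown. A gene entered the tests if it reached 1 FPKM in 2 libraries, which 11255 genes did. All 6 members passed, but GP5 did so only through the 4 untreated libraries, so its OTX015 changes are given as descriptions with no p from this fit, and OTX015 counts and medians leave it out. In the comparisons between the lines, medians are given with and without it. As for the identity of the cells, the megakaryocyte marker ITGA2B was abundant in every library (up to 390.1 FPKM), 6 of the 8 megakaryocyte markers reached 1 FPKM in every group, and all 9 erythroid markers did, led by HBG2. VWF, which encodes the ligand of GPIb alpha, stayed at or below 0.0151 FPKM in every library. Of 8 monocyte and neutrophil markers, only LYZ reached 1 FPKM, and S100A8 and ELANE were at 0 in every group.

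GP9 was the most abundant platelet-specific member. It had 136.1 and 113.5 FPKM in P/R cells under OTX015, 245.5 and 274.4 FPKM in untreated P/R cells, 36.99 and 39.4 FPKM in parental cells under OTX015, and 109.1 and 105.2 FPKM in untreated parental cells. Untreated P/R cells stood highest and treated parental cells lowest; treated P/R cells lay next to untreated parental cells, whose highest library was below the lower treated P/R library.

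GP1BA, the ligand-binding chain, had 51.1 and 48.8 FPKM in P/R cells under OTX015, 67.7 and 70.7 FPKM in untreated P/R cells, 12.6 and 13.9 FPKM in parental cells under OTX015, and 31.3 and 29.9 FPKM in untreated parental cells. No 2 groups overlapped, and even the treated P/R libraries were above the untreated parental ones. GP1BB, its partner, was lower and flatter: 10.4 and 10.6 FPKM in P/R cells under OTX015, 9.48 and 11.7 FPKM in untreated P/R cells, 5.38 and 5.69 FPKM in parental cells under OTX015, and 7.03 and 7.20 FPKM in untreated parental cells. The treated P/R libraries lay between the untreated P/R libraries, and all 4 P/R libraries were above all 4 parental ones.

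GP5 was the scarcest member. It had 0.352 and 0.318 FPKM in P/R cells under OTX015, 3.22 and 2.97 FPKM in untreated P/R cells, 0.306 and 0.213 FPKM in parental cells under OTX015, and 1.77 and 1.92 FPKM in untreated parental cells. The 4 treated libraries of both lines sat together below 1 FPKM, and the untreated P/R libraries were highest.

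GP6, the collagen receptor, had 30.5 and 27.9 FPKM in P/R cells under OTX015, 48.6 and 46.9 FPKM in untreated P/R cells, 6.27 and 5.89 FPKM in parental cells under OTX015, and 25.3 and 25.3 FPKM in untreated parental cells. Treated parental cells stood far below the other groups, and treated P/R cells were above untreated parental cells. FCER1G, its signalling partner, had 71.7 and 64.4 FPKM in P/R cells under OTX015, 74.1 and 79.1 FPKM in untreated P/R cells, 61.9 and 54.2 FPKM in parental cells under OTX015, and 78.2 and 76.1 FPKM in untreated parental cells. The untreated libraries of the lines overlapped, and the treated libraries of each line were below the untreated ones.

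**Figure D1:**
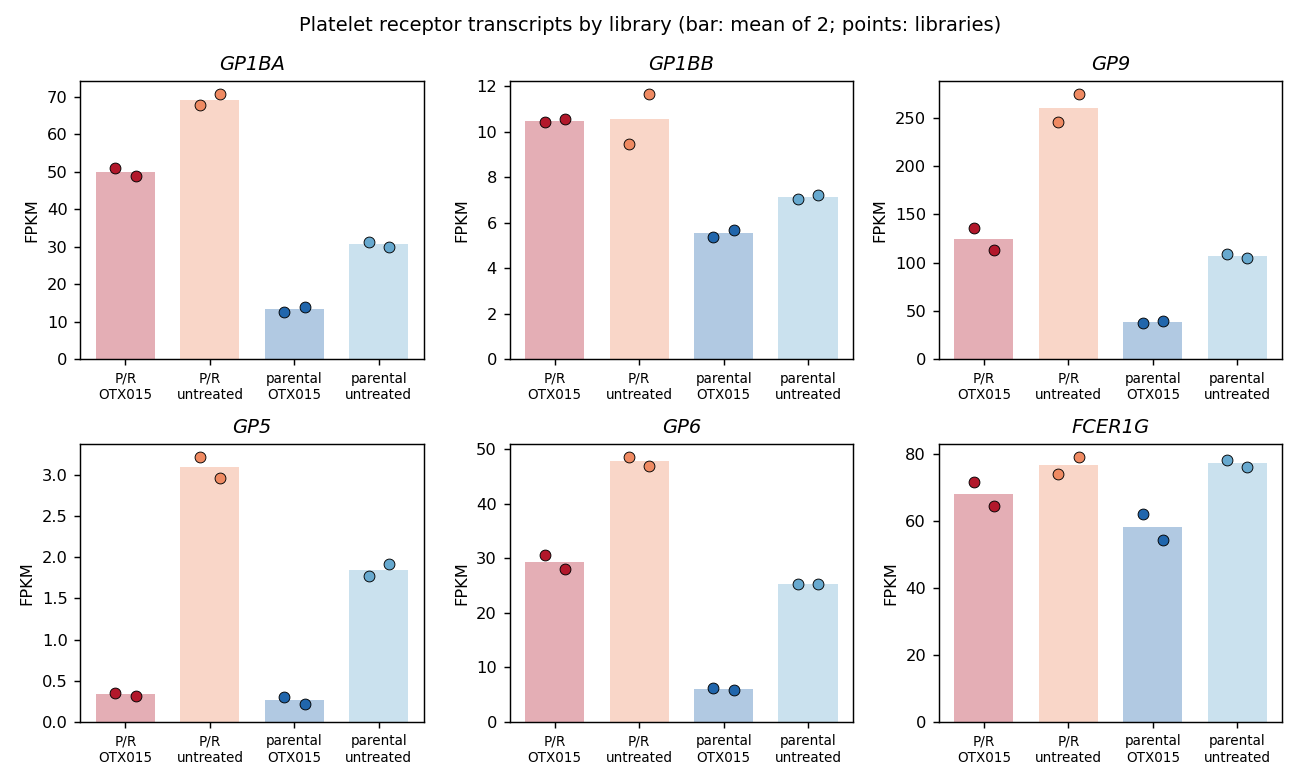
FPKM of each member in each library (points) with the mean of the 2 libraries of a group (bars, axes from 0), for P/R and parental cells with and without OTX015. GP9, GP1BA and GP6 are lowest in treated parental cells, GP5 is below 1 FPKM in all 4 treated libraries, and FCER1G varies least.

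In untreated parental cells the order of levels per length was GP9, FCER1G, GP1BA, GP6, GP1BB and GP5, and the library ranges of neighbouring genes in that order did not overlap. In untreated P/R cells it was the same order, but the ranges of FCER1G (74.1 to 79.1 FPKM) and GP1BA (67.7 to 70.7 FPKM) came close without overlapping. In treated parental cells FCER1G stood first and GP9 next, while GP6 (5.89 to 6.27 FPKM) and GP1BB (5.38 to 5.69 FPKM) were the closest pair, again without overlap. In treated P/R cells the order was again that of the untreated cells. Among tested genes, mean GP9 stood at percentile 92.98 in treated P/R cells, at 96.87 in untreated P/R cells, at 75.22 in treated parental cells and at 91.52 in untreated parental cells.

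Under OTX015 the 5 members other than GP5 were all lower in parental cells, and 3 of these 5 were lower in P/R cells. GP5 had its lowest levels under OTX015 in both lines. All changes below are log2 differences of FPKM + 1 tested with limma, with p-values adjusted over all 11255 tested genes; folds are ratios of mean FPKM. In parental cells 24.7% of all tested genes were lower and 25.7% were higher under OTX015 by the same test, so 5 lower and 0 higher members are to be read against those shares. The median change of the 5 was -1.15, beside 0.02 for all tested genes, and their changes differed widely in size.

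In parental cells GP6 fell most of the 5 on this scale: it averaged 6.08 ± 0.27 FPKM with OTX015 and 25.3 ± 0.01 FPKM without (SD, n = 2 each), a change of -1.89 (SE 0.07, limma adjusted p = 2.32e-07) and a 4.16-fold lower level. That change ranked 26th from the lowest among the 11255 tested genes. GP9 averaged 38.2 ± 1.69 FPKM with OTX015 and 107.2 ± 2.76 FPKM without, a change of -1.47 (SE 0.09, limma adjusted p = 2.46e-06). GP1BA averaged 13.3 ± 0.92 FPKM with OTX015 and 30.6 ± 0.98 FPKM without, a change of -1.15 (SE 0.06, limma adjusted p = 2.17e-06). For all 3 genes both treated libraries were below both untreated ones, and the ratios ran from 2.31-fold to 4.16-fold lower. With 2 libraries a group, such separation alone cannot give an exact permutation p below 0.333. Its share over all tested genes was not counted.

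GP5, the thrombin-cleaved subunit, averaged 0.260 ± 0.066 FPKM with OTX015 and 1.85 ± 0.11 FPKM without in parental cells. Its ratio, 7.11-fold lower, was the largest of the 6, while its log2 change of -1.18 is held down by the added 1 FPKM and ranged from -2.45 with a pseudocount of 0.1 to -0.38 with a pseudocount of 5. In a fit with no filter, which does not select on the untreated libraries, GP5 was lower in parental cells (limma adjusted p = 0.000221). FCER1G was 1.33-fold lower in parental cells, with a change of -0.41 (SE 0.07, limma adjusted p = 0.00174). GP1BB was 1.29-fold lower, with a change of -0.31 (SE 0.10, limma adjusted p = 0.0273). The GP1BB call was lost when any 1 of the 4 parental libraries was left out (limma adjusted p = 0.0631 to 0.116), so it rests on each of them.

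In P/R cells 21.8% of all tested genes were lower and 22.5% were higher under OTX015. Without GP5, 3 members (GP9, GP6 and GP1BA) were lower and 0 higher, and the median change of the 5 was -0.46, beside 0.01 for all tested genes. GP5 averaged 0.335 ± 0.024 FPKM with OTX015 and 3.10 ± 0.18 FPKM without, a 9.25-fold lower level and a log2 change of -1.62 (-2.88 and -0.60 with pseudocounts of 0.1 and 5). In the fit with no filter it was lower here too (limma adjusted p = 0.000217). GP9 averaged 124.8 ± 16.03 FPKM with OTX015 and 260.0 ± 20.5 FPKM without, a 2.08-fold lower level (log2 change -1.06, SE 0.09, limma adjusted p = 2.32e-05). GP6 was 1.63-fold lower (-0.69, SE 0.07, limma adjusted p = 6.46e-05) and GP1BA 1.39-fold lower (-0.46, SE 0.06, limma adjusted p = 0.000463).

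The other 2 members did not pass in P/R cells. GP1BB had a change of -0.00 with a 95% interval from -0.23 to 0.22 (limma adjusted p = 0.977), so a fall of the size seen in parental cells (-0.31) lies outside that interval, although the difference between the lines did not itself pass. FCER1G had a change of -0.17 with an interval from -0.34 to -0.00 (limma adjusted p = 0.0954), and its treated and untreated libraries did not overlap. With 2 libraries a group, an exact permutation test of a single gene cannot give a p below 0.333, so these calls rest on the spread that limma shares across genes.

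**Figure D2:**
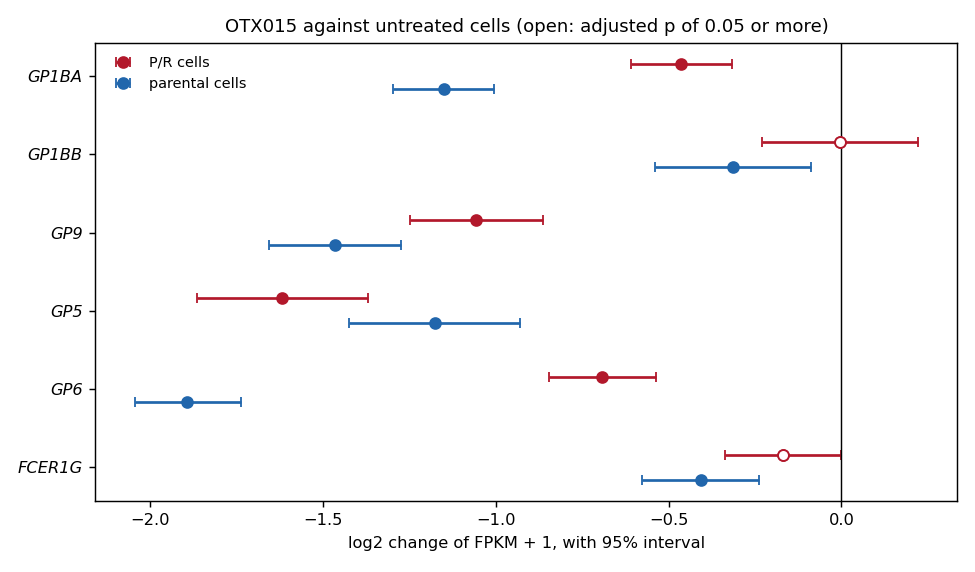
Change under OTX015 against untreated cells for each member in P/R and parental cells (log2 of FPKM + 1, with 95% intervals from limma). Open points did not pass an adjusted p of 0.05. GP5 entered the fit only through its untreated libraries, so its filled points and intervals are descriptions and mark no call. GP6 and GP1BA moved less in P/R cells than in parental cells, and GP1BB and FCER1G changed least in both.

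The size of the OTX015 response was set against each line directly, as the change in P/R cells minus the change in parental cells. Only 9 of 11255 tested genes (0.08%) passed this test in either direction, and 1080 had an unadjusted p under 0.05; 2 of the 9 were members, GP6 and GP1BA. For GP6 the difference was 1.20 (SE 0.10, limma adjusted p = 0.00411), the smallest p of all tested genes, with changes of -0.69 in P/R cells and -1.89 in parental cells. The GP6 difference passed in all 16 alternatives tried (limma adjusted p from 0.00161 to 0.0498). For GP1BA it was 0.69 (SE 0.09, limma adjusted p = 0.0479), with changes of -0.46 in P/R cells and -1.15 in parental cells. The GP1BA call passed in 3 of the 16 alternatives and was lost when any 1 of the 8 libraries was left out, the limma adjusted p over the 16 ranging from 0.0244 to 0.224.

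The differences of GP9, GP1BB and FCER1G did not pass. GP9 had a difference of 0.41 (95% interval 0.14 to 0.68, limma adjusted p = 0.324), GP1BB 0.31 (-0.01 to 0.63, adjusted p = 0.538) and FCER1G 0.24 (-0.00 to 0.48, adjusted p = 0.521). GP5 alone had an estimate in the other direction, -0.44, given as a description with no p from this fit. Its treated libraries were all below 1 FPKM, so the added 1 FPKM weighs on this estimate. As ratios of means, GP5 was 9.25-fold lower under OTX015 in P/R cells and 7.11-fold lower in parental cells. The median difference of the members without GP5 was 0.41, beside 0.00 for all tested genes. The remaining 7 genes that passed were MARCKSL1, NR5A1, DMTN, HDC, LAT, CSF1 and TRIM15. LAT encodes the adaptor that is phosphorylated downstream of GPVI.

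**Figure D3:**
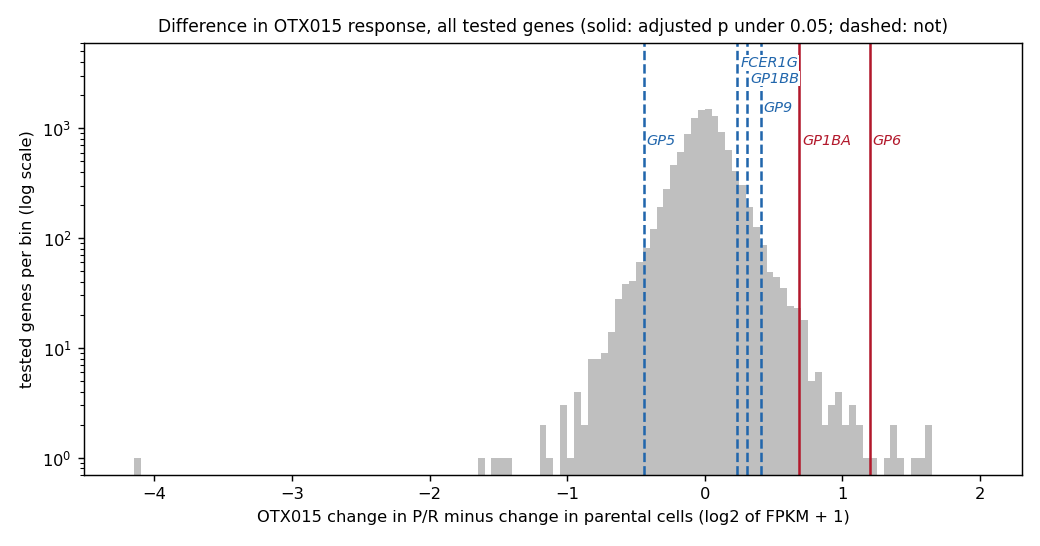
Distribution over all 11255 tested genes of the OTX015 change in P/R cells minus that in parental cells (log2 of FPKM + 1; vertical axis, genes per bin on a log scale), with a line for each member. GP6 at 1.20 and GP1BA at 0.69 passed the test (solid), and GP9, GP1BB and FCER1G lie above 0 without passing. GP5 at -0.44 lies below 0, and entered the fit only through its untreated libraries.

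Between the lines, P/R cells had higher levels of most members. Untreated, 5 of 6 members were higher in P/R cells and 0 were lower, where 11.7% of all tested genes were higher and 11.9% lower; the median difference of the members was 0.71 (0.89 without GP5), beside -0.01 for all tested genes. GP9 was 2.43-fold higher in P/R cells (log2 difference 1.27, SE 0.09, limma adjusted p = 1.06e-05), averaging 260.0 ± 20.5 FPKM against 107.2 ± 2.76 FPKM in parental cells. GP1BA was 2.26-fold higher (1.15, SE 0.06, limma adjusted p = 4.35e-06) and GP6 1.89-fold higher (0.89, SE 0.07, limma adjusted p = 2.38e-05). For these 3 genes both untreated P/R libraries were above both untreated parental libraries. The share of all tested genes separated in this way was not counted.

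GP5 was 1.68-fold higher in untreated P/R cells (0.53, SE 0.11, limma adjusted p = 0.00761) and GP1BB 1.49-fold higher (0.50, SE 0.10, limma adjusted p = 0.00593). The GP5 call was lost without the first untreated P/R library (adjusted p = 0.0603) and with a pseudocount of 0.1 (adjusted p = 0.0511), and the GP1BB call without the second untreated P/R library (adjusted p = 0.0515). FCER1G had a difference of -0.01 with a 95% interval from -0.18 to 0.16 (limma adjusted p = 0.936), averaging 76.6 ± 3.50 FPKM in P/R cells and 77.1 ± 1.53 FPKM in parental cells. So the ligand-binding chain of the collagen receptor differed between the lines while its signalling partner showed no difference beyond 0.18 in either direction at 95% confidence.

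Under OTX015, 4 of 6 members were higher in P/R cells than in parental cells and 0 were lower, where 12.7% of all tested genes were higher and 11.7% lower. Each group enters 2 of the 4 comparisons, so the values are set side by side and not counted as separate evidence. GP6 averaged 29.2 ± 1.81 FPKM in treated P/R cells and 6.08 ± 0.27 FPKM in treated parental cells, 4.81-fold higher (2.09, SE 0.07, limma adjusted p = 2.10e-07), the 12th highest difference of all tested genes. GP1BA was 3.77-fold higher (1.84, SE 0.06, limma adjusted p = 3.46e-07), GP9 3.27-fold higher (1.68, SE 0.09, limma adjusted p = 2.46e-06) and GP1BB 1.89-fold higher (0.81, SE 0.10, limma adjusted p = 0.00037). The median difference was 1.25 (1.68 without GP5), beside -0.01 for all tested genes.

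GP5 and FCER1G did not pass under OTX015. GP5 averaged 0.335 ± 0.024 FPKM in treated P/R cells and 0.260 ± 0.066 FPKM in treated parental cells, with a difference of 0.08 (95% interval -0.16 to 0.33, limma adjusted p = 0.629). FCER1G had a difference of 0.23 (0.06 to 0.40, limma adjusted p = 0.0552). It passed without the first treated parental library (adjusted p = 0.0278), without the second treated P/R library (adjusted p = 0.0412) and with a filter at a mean of 5 FPKM (adjusted p = 0.0444).

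Because the chains act as complexes, their proportions were compared within libraries. The ratio of GP9 to GP1BB was 13.1 and 10.8 in treated P/R cells, 25.9 and 23.6 in untreated P/R cells, 6.88 and 6.92 in treated parental cells, and 15.5 and 14.6 in untreated parental cells. It was lower in the treated libraries of each line, with no overlap; mean GP9 was 2.08-fold lower in treated P/R cells and 2.81-fold lower in treated parental cells, and mean GP1BB 1.01-fold and 1.29-fold lower. The ratio of GP9 to GP1BA was also lower in the treated libraries of each line, with no overlap: 2.67 and 2.33 in treated P/R cells, 3.62 and 3.88 in untreated P/R cells, 2.94 and 2.83 in treated parental cells, and 3.48 and 3.52 in untreated parental cells. Its range over the 8 libraries was 2.33 to 3.88, while that of GP1BA to GP1BB ran from 2.34 to 7.14.

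For the collagen receptor, the ratio of GP6 to FCER1G was 0.425 and 0.434 in treated P/R cells, 0.655 and 0.594 in untreated P/R cells, 0.101 and 0.109 in treated parental cells, and 0.323 and 0.332 in untreated parental cells. FCER1G exceeded GP6 in every library, and the gap was widest in treated parental cells. GP5 to GP9 was at most 0.0183 in any library, and was lower in the treated libraries of each line than in the untreated ones.

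**Figure D4:**
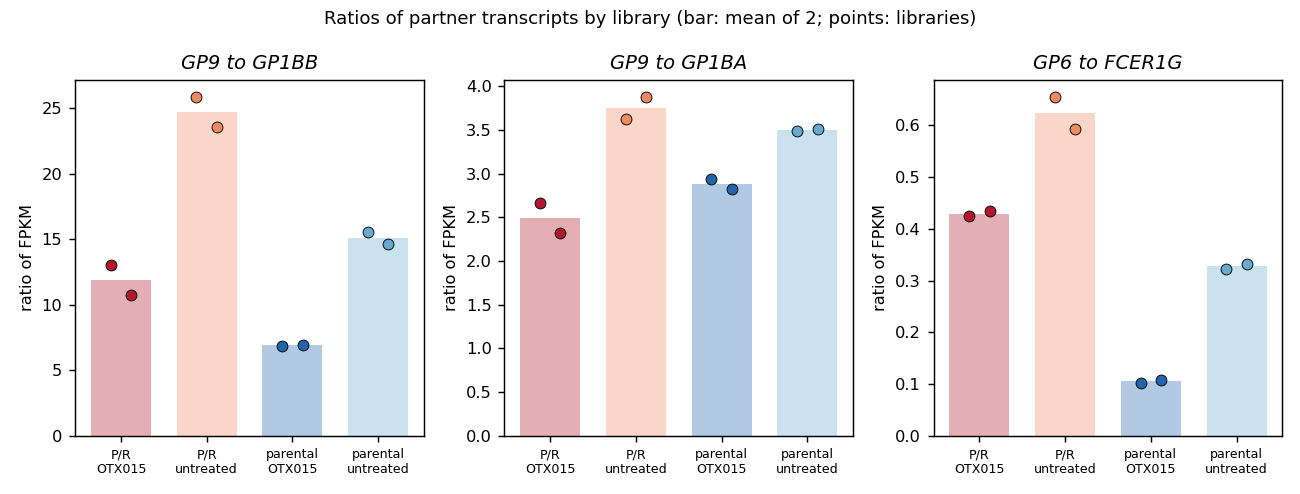
Ratios of FPKM between partner transcripts in each library (points) with the mean of the 2 libraries (bars, axes from 0). GP9 to GP1BB and GP6 to FCER1G are lowest in treated parental cells, at about 6.9 and 0.10, and highest in untreated P/R cells, while GP9 to GP1BA runs from 2.33 to 3.88 and is also lower in the treated libraries of each line.

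The members lie on 5 chromosomes, GP1BA on 17, GP1BB on 22, GP9 and GP5 on 3, GP6 on 19 and FCER1G on 1. Their tested neighbours were examined in gene order from GENCODE, a GRCh38 annotation. It was used only for gene order and overlap, since the table was made on hg19. Of the 10 nearest tested genes around GP1BA, 9 were higher in untreated P/R than in untreated parental cells (median difference 0.57). They include CHRNE, PFN1 and RNF167. In that comparison 11.7% of all tested genes were higher and 11.9% lower. Relative to the median of the 40 nearest tested genes, the GP1BA difference was 0.60 (limma adjusted p = 0.000285), against 1.15 without that step. GP5 was in the reverse position: 0 of its 10 neighbours were higher and 5 were lower in untreated P/R cells (median -0.34), and its difference relative to the 40 nearest was 0.91 (adjusted p = 0.00051), against 0.53 without that step.

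Under OTX015 2 of the 10 neighbours of GP5 were higher in P/R cells and 6 lower. The shares of all tested genes there were 12.7% higher and 11.7% lower. GP5 itself was below 1 FPKM in both lines under OTX015, too low to be set against its neighbours. GP9, on the same chromosome, had neighbours with a median difference of -0.06 in untreated cells, and those of GP1BB had the same to 2 decimals; 0 of 10 were higher around each. The 10 neighbours of GP6 had a median of 0.16, with 1 higher and 2 lower. Around FCER1G, 7 of 10 neighbours were lower under OTX015 in each line (median -0.35 in P/R cells and -0.43 in parental cells). Around GP6, 5 of 10 were lower and 2 higher in parental cells, and 2 lower and 2 higher in P/R cells. Of all tested genes, 21.8% were lower under OTX015 in P/R cells and 24.7% in parental cells. Relative to the 40 nearest genes, the FCER1G change in parental cells was -0.22 (limma adjusted p = 0.0325), against -0.41. Between the lines under OTX015, 6 of the 10 neighbours of FCER1G were higher in P/R cells and 0 lower (median 0.25). Whether gene copy number differed between the lines was not tested.

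**Figure D5:**
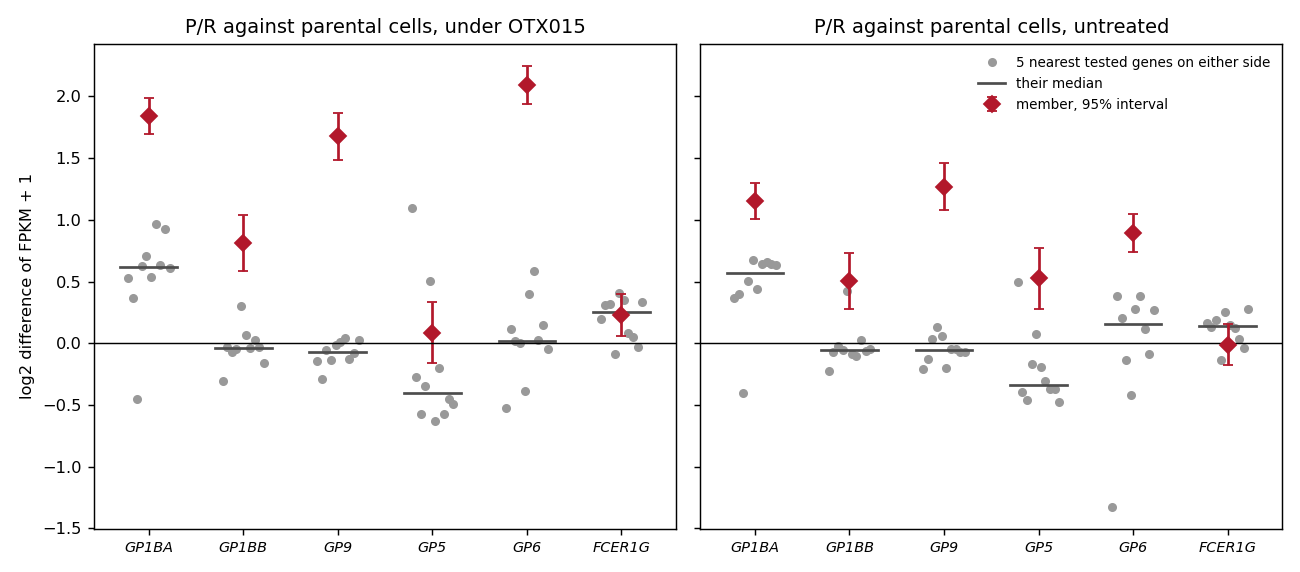
Log2 difference of FPKM + 1 between P/R and parental cells, under OTX015 (left) and untreated (right), for each member (diamonds with 95% intervals) and for its 10 nearest tested genes (grey points, with their median as a line). The neighbours of GP1BA are mostly above 0 and those of GP5 mostly below 0, while GP9 and GP1BB stand above neighbours whose medians lie near 0.

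Some members overlap the span of other genes in the GENCODE annotation, introns included. The sources used here do not say whether reads were counted by strand. GP1BA overlaps CHRNE on the other strand; CHRNE was at 1.79 to 5.08 FPKM in all libraries, was higher in P/R cells in both states (0.68 untreated, limma adjusted p = 0.00449) and did not pass under OTX015 (0.22 in P/R cells, adjusted p = 0.189, and 0.19 in parental cells, adjusted p = 0.245). GP1BB overlaps SEPT5 (now SEPTIN5) on the same strand, and the annotation also holds a read-through gene of both. SEPTIN5 was at 0.334 to 1.51 FPKM and reached 1 FPKM only in untreated P/R cells. It passed in none of the 5 comparisons, but at such levels the test says little. Mean SEPTIN5 was 1.77-fold higher in untreated and 1.66-fold higher in treated P/R cells than in parental cells, with no overlap. Under OTX015 it was 1.64-fold lower in P/R cells and 1.54-fold lower in parental cells, again with no overlap. GP6 overlaps 2 non-coding genes. Whether exons overlap was not examined, and any reads from shared exons cannot be told apart here.

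The genes whose levels followed each member most closely over the 8 libraries, by Pearson r on log2(FPKM + 1) among 8292 tested genes with a mean of at least 5 FPKM, are given as descriptions; the 8 points share 4 conditions. GP6 was most like TRIM15 (r = 0.998), ARRB1 and CTSZ, and GP1BA most like SAMD14 (r = 0.997), APBB1IP and CCND3. GP9 was most like MFNG (r = 0.995), RHD and ZYX. GP5 was most like SURF4 (r = 0.996), HBE1 and SMIM15, whose levels, like its own, separated treated from untreated libraries. FCER1G was most like ACSF3 (r = 0.994), CCDC51 and NPRL3, and GP1BB most like RAB6B (r = 0.981), PRICKLE3 and RDH13. TRIM15 also passed the test of a different OTX015 response, though in 3 of 16 alternatives, at 38.3 FPKM in treated and 45 FPKM in untreated P/R cells, and 20.4 FPKM in treated and 35.9 FPKM in untreated parental cells.

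The genes that work with these receptors were counted from lists. All list counts below are to be read against the shares of all tested genes. Under OTX015, 21.8% were lower and 22.5% higher in P/R cells, and 24.7% were lower and 25.7% higher in parental cells. Between the lines, 11.7% were higher and 11.9% lower in untreated P/R cells. Under OTX015, 12.7% were higher and 11.7% lower in P/R than in parental cells. Of 21 tested genes of GPVI and GPIb proximal signalling (kinases, adaptors and effectors), 13 were lower and 5 higher under OTX015 in P/R cells, and 12 were lower and 5 higher in parental cells; the medians were -0.27 and -0.33. LAT averaged 117.3 FPKM with OTX015 and 254.2 FPKM without in P/R cells (-1.11, limma adjusted p = 2.64e-06), and 69.0 FPKM with and 232.2 FPKM without in parental cells (-1.74, adjusted p = 1.73e-07). GRAP2, the adaptor Gads that joins LAT to SLP-76, averaged 13.01 FPKM with OTX015 and 36.3 FPKM without in P/R cells (-1.41, adjusted p = 2.29e-05), and 3.01 FPKM with and 16.7 FPKM without in parental cells (-2.15, adjusted p = 1.53e-06). The list was not uniform: FYN, a Src family kinase that phosphorylates the gamma chain, rose in both lines, with 42.6 FPKM under OTX015 and 24.8 FPKM untreated in P/R cells (0.76, adjusted p = 0.000298), and 34.7 FPKM under OTX015 and 14.5 FPKM untreated in parental cells (1.20, adjusted p = 1.71e-05).

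Between the lines, 9 of these 21 signalling genes were higher and 0 lower in untreated P/R cells (median 0.25), and 12 were higher and 0 lower under OTX015 (median 0.26). GRAP2 was 1.81 higher in treated P/R cells (limma adjusted p = 6.38e-06) and 1.08 higher in untreated ones (adjusted p = 0.000158). RASGRP2, the calcium-dependent activator of Rap1 in platelets, was 1.09 higher in treated P/R cells (adjusted p = 1.83e-05) and 0.70 higher in untreated ones (adjusted p = 0.000281). In the difference of response, LAT alone of the 21 passed (0.62, limma adjusted p = 0.0479); it passed in 4 of 16 alternatives, with an adjusted p from 0.0123 to 0.206, and was lost with the local median removed (0.061) and on leaving out any library but the second treated P/R one.

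Of 8 tested inhibitory and related ITAM receptors of platelets and their phosphatases, 6 were lower and 1 higher under OTX015 in each line, with medians of -0.45 in P/R cells and -0.67 in parental cells. PTPN6, the phosphatase SHP-1, averaged 50.6 FPKM with OTX015 and 115.3 FPKM without in P/R cells, and 34.5 FPKM with and 104.7 FPKM without in parental cells (limma adjusted p = 1.18e-05 and 1.53e-06). PECAM1, an inhibitory adhesion receptor, and FCGR2A, another ITAM receptor, were also lower in both lines. C6orf25 (now MPIG6B) had higher means under OTX015, 172.8 against 118.5 FPKM in P/R cells and 137.8 against 115.7 FPKM in parental cells. Between the lines 2 of the 8 were higher and 1 lower in untreated P/R cells, and 5 higher and 1 lower under OTX015. The lower gene was LAIR1, with differences of -1.33 untreated (limma adjusted p = 0.000101) and -0.53 under OTX015 (adjusted p = 0.0161). CLEC1B, the podoplanin receptor CLEC-2, stayed below 0.1 FPKM on average in every group and was not tested.

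Of 12 other partners of the gamma chain and ITAM adaptors, 3 were tested; 1 was lower under OTX015 in P/R cells and 2 in parental cells, and 0 passed between the lines. FCER1A, the IgE-binding chain that pairs with FCER1G on mast cells and basophils, averaged 43.0 FPKM with OTX015 and 132.7 FPKM without in P/R cells (-1.60, limma adjusted p = 8.10e-07), and 42.4 FPKM with and 135.8 FPKM without in parental cells (-1.66, adjusted p = 4.56e-07). Thus FCER1A fell by a similar amount in both lines while FCER1G changed by -0.17 and -0.41. Mast cell and basophil markers differed between the lines in the reverse direction of the platelet members: 5 of 6 tested were lower in untreated P/R cells, and their summed level was 385.5 to 399.9 FPKM there, against 547.6 to 584.2 FPKM in untreated parental cells. Their part in the FCER1G level was not tested.

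Of 11 tested ligands and intracellular partners of GPIb-IX-V, 5 were lower and 3 higher under OTX015 in P/R cells, and 7 were lower and 2 higher in parental cells (medians -0.23 and -0.36). SELP, P-selectin, a ligand of GPIb alpha, averaged 4.00 FPKM with OTX015 and 13.7 FPKM without in P/R cells (-1.56, limma adjusted p = 1.67e-05), and 1.02 FPKM with and 4.70 FPKM without in parental cells (-1.50, adjusted p = 1.36e-05). In untreated cells 4 of the 11 were higher and 2 lower in P/R cells, and under OTX015 5 were higher and 2 lower. THBS1, thrombospondin, was 1.52 higher in untreated P/R cells (limma adjusted p = 8.55e-06). The leukocyte integrin chain ITGB2, part of a counter-receptor of GPIb alpha, was 1.21 lower there (limma adjusted p = 7.14e-05). It averaged 3.27 FPKM in untreated P/R cells and 8.83 FPKM in untreated parental cells. ITGAM, the other integrin chain on this list, was at most 0.409 FPKM in any library and was not tested.

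ADAM10, a protease that cleaves GPVI, averaged 53.3 FPKM in P/R cells under OTX015, 56.2 FPKM in untreated P/R cells, 44.6 FPKM in treated parental cells and 38.01 FPKM in untreated parental cells, and was 0.55 higher in P/R cells when untreated (limma adjusted p = 0.000298). TIMP3, an inhibitor of such proteases, was lower under OTX015 in both lines, by -1.12 in P/R cells (adjusted p = 2.67e-06) and by -0.85 in parental cells (adjusted p = 7.20e-06). Over the 6 tested genes of shedding, 1 was lower in P/R cells under OTX015, and 2 were lower and 1 higher in parental cells. In P/R cells 2 of the 6 were higher when untreated and 1 under OTX015.

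Of 19 other tested platelet surface receptors, 9 were lower and 5 higher under OTX015 in each line (medians -0.25 in both lines to 2 decimals), and 10 were higher and 1 lower in P/R cells in both states. TBXA2R, the thromboxane receptor, was 1.49 higher in treated P/R cells (limma adjusted p = 3.75e-06) and 0.90 higher in untreated ones (adjusted p = 8.25e-05). ITGB3, the beta chain of the fibrinogen receptor, averaged 73.7 FPKM in untreated P/R cells and 40.8 FPKM in untreated parental cells (0.84, adjusted p = 6.04e-06). CD226, an adhesion receptor, was lower under OTX015 in both lines (-1.46 in P/R and -1.77 in parental cells).

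Of 20 tested megakaryocyte transcription factors, 8 were lower and 2 higher under OTX015 in P/R cells (median -0.05). In parental cells 7 were lower and 5 higher (median -0.10), where 24.7% of all tested genes were lower and 25.7% higher. LMO2, a partner of GATA1 and TAL1, averaged 24.7 FPKM with OTX015 and 69.2 FPKM without in P/R cells (-1.45, limma adjusted p = 5.12e-06), and 14.1 FPKM with and 61.1 FPKM without in parental cells (-2.04, adjusted p = 5.72e-07). GATA1, given after its values were seen because GATAA was searched above, was higher under OTX015, with 383.0 FPKM treated and 339.5 FPKM untreated in P/R cells (0.17, adjusted p = 0.00511) and 368.9 FPKM treated and 335.3 FPKM untreated in parental cells (0.14, adjusted p = 0.0134). Also given after their values were seen are GATA2 and ETS factors. GATA2 rose by 0.28 in parental cells (limma adjusted p = 0.00172) and did not pass in P/R cells (0.13, adjusted p = 0.0755). SPI1, ETS1 and ETV6 had lower means under OTX015 in both lines. SPI1 averaged 36.4 FPKM with OTX015 and 110.1 FPKM without in parental cells. FLI1 and ELF1 had higher means in treated than in untreated parental cells (140.3 against 135.5 and 65.4 against 56.5 FPKM), but the FLI1 libraries overlapped. In P/R cells neither mean was higher under OTX015. There FLI1 averaged 180.9 FPKM treated and 184.7 FPKM untreated, and ELF1 averaged 59.2 FPKM in both states. Between the lines 8 factors were higher and 1 lower in untreated P/R cells, and 10 higher and 2 lower under OTX015. FLI1, an ETS factor, averaged 184.7 FPKM in untreated P/R cells and 135.5 FPKM in untreated parental cells (0.44, adjusted p = 0.000111).

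Most tested megakaryocyte markers other than GP9 moved with the members. The summed level of the list, GP9 included, was 541.5 to 612.1 FPKM in treated and 709.1 to 718.7 FPKM in untreated P/R cells. In parental cells the sum was 454.6 to 467.2 FPKM treated and 540.4 to 566.8 FPKM untreated. GP9 is itself a member and averaged 124.8 FPKM in treated and 260.0 FPKM in untreated P/R cells. In parental cells GP9 averaged 38.2 FPKM treated and 107.2 FPKM untreated, so the sum does not set the markers apart from the members. Without GP9, 3 of 5 tested markers were lower under OTX015 in P/R cells and 4 of 5 in parental cells, and 4 of 5 were higher in P/R cells in both states, with PF4 at 48.9 FPKM in untreated P/R cells and 2.33 FPKM in untreated parental cells (3.91, limma adjusted p = 1.77e-07). ITGA2B, the most abundant of them, did not follow: its highest value was 325.6 FPKM in untreated P/R cells and 390.1 FPKM in untreated parental cells. Of the 9 erythroid markers, 4 were lower and 0 higher in untreated P/R cells. Of 6 epithelial and stromal markers, KRT18 and KRT8 reached 1 FPKM and the list summed to 90.7 to 92.0 FPKM in untreated P/R cells, against 18.0 to 21.0 FPKM in untreated parental cells, with EPCAM at 0 in both. The part of any of these shifts in the levels of the receptor genes was not tested.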

How the data were processed

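RNA sequencing of 8 libraries was analysed. The deposited values are FPKM per gene, made by the authors with TopHat2 2.0 and Cufflinks 2.0 on hg19, per the submitters' processing notes; the sources used here give no annotation, strand or settings. The unit was inferred from the tools and values. Sorted values of the libraries differ by at most 0.136% at 1 FPKM or more, so the deposited FPKM are quantile normalised; this removes global change, and depth and counting error are unknown. As deposited, 28 symbols were numbers; these genes were named by Ensembl identifier.

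The 11255 genes that reached 1 FPKM in 2 or more libraries were fitted as log2(FPKM + 1) in limma 3.58.1 (R 4.3.3; 4 group means, variance trend, 4 residual and 5.23 prior degrees of freedom), Benjamini-Hochberg adjusted over all of them, two-sided, threshold 0.05. The log2(FPKM + 1) scale understates the change of low genes. The fit was tested on simulated data. Named were the members, up to 4 called genes per list and comparison with the largest change and no overlap between groups, the 3 genes most like each member, and 5 tested neighbours on either side. The members and lists were chosen with earlier results of these data known. Alternatives were pseudocounts of 0.1 and 5, other filters, centring on the median, fits without the variance trend or restricted to 2 groups, a replicate block, removal of the local median of 40 neighbours, and leaving out each library; a crossed block was added after seeing the data. Promoters are RefSeq GRCh38.p14.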

Additional observations from a re-analysis of the deposited data

Results flagged for a closer look

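The OTX015 response of 2 members differed between the lines by a test of the difference itself, GP6 in every alternative tried and GP1BA in few. For GP6 the change in P/R cells minus that in parental cells was 1.20 on the log2 scale (limma adjusted p = 0.00411); the mean fell to 29.2 FPKM in treated P/R cells, against 47.8 FPKM untreated, and to 6.08 FPKM in treated parental cells, against 25.3 FPKM untreated. For GP1BA it was 0.69 (limma adjusted p = 0.0479), with means of 49.9 FPKM in treated and 69.2 FPKM in untreated P/R cells, and 13.3 FPKM in treated and 30.6 FPKM in untreated parental cells; this call passed in 3 of 16 alternatives (limma adjusted p from 0.0244 to 0.224) and was lost on leaving out any library, under the replicate block (0.114) and with the local median removed (0.061).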

How the results depend on the processing

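Over 18 settings, 505 values of members were recomputed. Of these, 475 kept their direction and side of the threshold, 21 lost the call, 4 gained one and 5 changed sign. Of 30 member comparisons, 21 had no change. The tally includes GP5 under OTX015 (16 settings in each line) and its difference in response (15 settings). Where the 1 FPKM filter was kept, GP5 entered only through untreated libraries, so a kept call there is no sign of robustness. The 5 sign changes were of estimates near 0 that passed in no such setting: GP1BB under OTX015 in P/R cells (-0.14 to 0.131 over single libraries left out, and 0.004 without the first treated P/R library), FCER1G there (0.0134 with the local median removed) and FCER1G between the untreated lines (-0.0571 to 0.035, and 0.00885 without the first untreated parental library). Members called for the difference in response numbered 2, and 1 (GP6) with a pseudocount of 0.1, no filter, no variance trend, the replicate block, the local median removed, and on leaving out each library (1 to 1). Genes called for it numbered 9, and 29 with a pseudocount of 5, 4 with a pseudocount of 0.1, with no filter or with the local median removed, 3 with no variance trend, 2 with the replicate block and 2 to 8 without 1 library. For P/R against parental cells untreated, 2647 genes were called, and 1614 or 1689 without the first or second untreated P/R library; under OTX015, 2747 and 1763 without the first treated parental library. GP5 was not tested with a mean of at least 5 FPKM, and GP1BB under OTX015 in parental cells lost its call with no filter (limma adjusted p = 0.0588). Replicate numbers are only names: same-numbered deviations correlated by -0.12 to 0.104. The replicate block took away the GP1BA difference (limma adjusted p = 0.114) and no other member call. The crossed block, chosen after seeing the data, gave 2548 genes and 4 members for P/R against parental cells under OTX015. Of 680 list counts, 639 stayed within 1.5 times. With 2 libraries a group and unknown depth, small differences cannot be resolved.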
